A study of Mus musculus with 18 samples.

Results

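The set described here comprised 44 mouse genes of the interferon response and of antigen presentation, listed by symbol, measured on 18 Affymetrix gene arrays of C2C12 cells. C2C12 is a mouse myoblast line that fuses into muscle-like myotubes when serum is withdrawn. All arrays came from stable lines in which endogenous TAF3 had been depleted with short hairpin RNAs and replaced with a TAF3 transgene. TAF3 is a subunit of the basal transcription factor TFIID whose PHD finger binds trimethylated lysine 4 of histone H3 and also nuclear phosphoinositides. The 3 lines were WT-TAF3 without depletion of PIP4K2B (called control below, since its labels name no hairpin), WT-TAF3 with sh-PIP4K2B, and KK-TAF3 with sh-PIP4K2B. PIP4K2B is a lipid kinase that uses the phosphoinositide PI5P, and KK-TAF3 is a mutant made to lose phosphoinositide binding while keeping the histone contact. Each line was either differentiated in low serum for 2 days (the design text gives 3 days) or kept growing and treated with 10 µM etoposide, a topoisomerase II poison that breaks DNA, for 7 h. Each of these 6 groups had 3 arrays. KK-TAF3 cells without sh-PIP4K2B and cells with neither treatment were not analysed here. Etoposide against differentiation therefore compares 2 treatments with each other, and the drug, the serum and the state of the cells cannot be told apart.

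Type I interferons signal through the receptor IFNAR and the kinases JAK1 and TYK2 to a complex that holds STAT2 and IRF9 and binds the interferon-stimulated response element in the promoters of its target genes. Interferon gamma acts through a different motif, the gamma-activated sequence, and induces IRF1 and the genes of antigen presentation. The targets include proteins that bind viral RNA (the IFIT family), enzymes that double-stranded RNA activates (OAS proteins, the kinase EIF2AK2), sensors that feed back on interferon production (IFIH1, DHX58, ZBP1), the brake USP18, and the proteasome subunits, chaperones and receptor chains that load peptides on MHC molecules. Many of these genes are also transcribed at a low level without any added interferon.

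For 39 of the 44 genes a transcript cluster carried that symbol alone: 6 of 6 transcription factors and regulators, 5 of 5 nucleic acid sensors and partners, 20 of 23 antiviral effectors, 3 of 3 genes of the PARP9 complex with Parp14, and 5 of 7 antigen presentation genes. Where a gene had several clusters the brightest was used. Ifi44 is not analysed here. The clusters of Isg15, Gbp2, H2-D1 and H2-K1 also carried other symbols and are described separately at the end. These 39 stood among 19938 genes, and the mean signal of 21 of them lay above the median of all genes. Counts of members past the threshold are out of these 39 throughout.

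Of the 44 genes, 33 had a promoter window in RefSeq (GRCm38.p6), running from 250 bases before to 50 bases after the transcription start. Usp18, Nlrc5, Dhx58, Zbp1, Oas2, Mx1, Mx2, Rtp4, Parp9, Parp14 and Cd74 were without one. A gene with several windows counts once, if any of them matches. The core of the interferon-stimulated response element, GAAANNGAAA on either strand, was found in 14 of the 33 genes (42.4%). Among all 27025 genes with a window it was found in 3.99%. The gamma-activated core TTCNNNGAA, which reads the same on both strands, was found in 8 of 33 (24.2%) and in 9.55% of all these genes. The promoters of Ifit1 and Ifit3 are shown as examples. Each holds 2 response element cores, in capitals, within the 200 bases that end at the base before the start. Bst2, Oas1a and a window of Gbp3 also hold 2 there and Isg15 holds 3, and these genes passed the threshold in no comparison. Ifit2, Oasl2, Dtx3l and Tapbp, lower after etoposide in all 3 lines, hold none there. Gbp2 holds 1 there, and the cluster it shares with Gbp2b was lower after etoposide in all 3 lines. Stat2 holds 1 further upstream and was lower after etoposide in both sh-PIP4K2B lines. Whether a core goes with a change was not tested. The Ifit1 stretch is chr19:34640689-34640888 and the Ifit3 stretch is chr19:34583329-34583528, both on the plus strand of GRCm38.p6 and printed 5′ to 3′. In both genes the capitals read the reverse complement of the motif.
Ifit1: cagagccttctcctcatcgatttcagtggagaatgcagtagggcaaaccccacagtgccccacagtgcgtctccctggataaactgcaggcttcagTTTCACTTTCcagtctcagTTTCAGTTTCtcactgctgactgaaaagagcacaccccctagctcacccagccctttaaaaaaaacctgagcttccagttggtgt
Ifit3: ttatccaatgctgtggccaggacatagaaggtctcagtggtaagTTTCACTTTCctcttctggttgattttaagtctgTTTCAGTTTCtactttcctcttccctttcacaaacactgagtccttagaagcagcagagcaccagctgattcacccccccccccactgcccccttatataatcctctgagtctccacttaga
Shorter windows show a single core, again in capitals, in a signalling gene (Stat2), an effector that passed the threshold in no comparison (Rsad2), an antigen presentation gene of which the same holds (B2m), and the gamma-activated core of Irf1. They lie at chr10:128270266-128270295 for Stat2 on the plus strand, chr12:26456553-26456582 for Rsad2 on the minus strand, chr2:122147538-122147567 for B2m on the plus strand, and chr11:53769914-53769942 for Irf1 on the plus strand.
Stat2: cgcaccctggTTTCAGTTTCctttccctag
Rsad2: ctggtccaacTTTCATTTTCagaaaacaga
B2m: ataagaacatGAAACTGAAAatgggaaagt
Irf1: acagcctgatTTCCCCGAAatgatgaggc
A match is a description of the letters and says nothing of whether a factor was bound in these cells.

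Values are log2 signals after robust multi-array averaging (RMA), so a difference of 1 is a doubling. Differences were tested with limma, with p-values adjusted by Benjamini-Hochberg over 19938 genes, and passing the threshold means an adjusted p under 0.05 together with more than 1.4-fold. Array medians ran from 7.25 to 7.46 and arrays of 1 group correlated at 0.990 to 0.997. The depleted kinase checked the labels: Pip4k2b differed by -1.14 (limma, adjusted p = 1.78e-06) in differentiated and by -0.88 (adjusted p = 3.68e-05) in etoposide-treated sh-PIP4K2B cells. The mean signal of 8 muscle markers lay between 9.12 and 9.73 on every array, against 6.63 to 6.88 for 10 macrophage and dendritic cell markers, 5.95 to 6.25 for 8 lymphocyte markers and 6.08 to 6.46 for 5 endothelial markers. Ptprc, which marks all leukocytes, lay between 5.89 and 6.28. In such bulk RNA, fewer cells of a type and less RNA per cell cannot be told apart.

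Several interferon-induced genes varied widely between replicate arrays of differentiated cells. On the arrays numbered 2, 11 of the 39 genes (28.2%) had their highest signal in all 3 differentiated groups, against 4.23% of all genes. They were Irf7, Irf9, Usp18, Ifit1, Ifit2, Ifit3, Oasl2, Ifi35, Rtp4, Dtx3l and Cd74. The count goes by rank alone, and not all of them varied widely. Array 2 exceeded the mean of the other arrays by 0.019 for Ifi35 in control. With KK-TAF3 the excess was 0.012 for Dtx3l and 0.026 for Cd74. No member was highest on the arrays numbered 1 or on those numbered 3 throughout, where 3.16% and 2.02% of all genes were. After etoposide, 1, 1 and 2 members (2.56%, 2.56% and 5.13%) were highest on the arrays numbered 1, 2 and 3, against 6.16%, 4.36% and 10.9% of all genes.

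Ifit3, an RNA-binding partner of IFIT1, read 7.69, 9.17 and 8.80 on the differentiated control arrays 1 to 3, 7.36, 9.71 and 8.43 with sh-PIP4K2B, and 7.24, 8.02 and 7.11 with KK-TAF3. Ifit1, which binds viral RNA lacking host cap methylation, read 8.17, 8.90 and 8.33 in control, 7.90, 9.53 and 8.29 with sh-PIP4K2B, and 7.72, 8.18 and 7.54 with KK-TAF3. Usp18, which removes ISG15 from proteins and blocks IFNAR signalling, read 7.34, 8.25 and 7.70 in control, 7.29, 9.33 and 7.93 with sh-PIP4K2B, and 7.05, 7.65 and 7.32 with KK-TAF3. In all 3 genes array 2 was the highest of each differentiated group and the groups overlapped. Array 2 exceeded the mean of the other 2 sh-PIP4K2B arrays by 1.81 for Ifit3, 1.44 for Ifit1 and 1.72 for Usp18. The pooled SD between differentiated replicates of Usp18 (0.68) and of Ifit1 (0.573) stood at the 100th percentile of all genes to the rounding used, and that of Irf1 (0.0321), the interferon gamma-induced transcription factor, at the 6.23 percentile. The arrays numbered 2 are not labelled as a batch, and what set them apart was not tested.

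**Figure D1:**
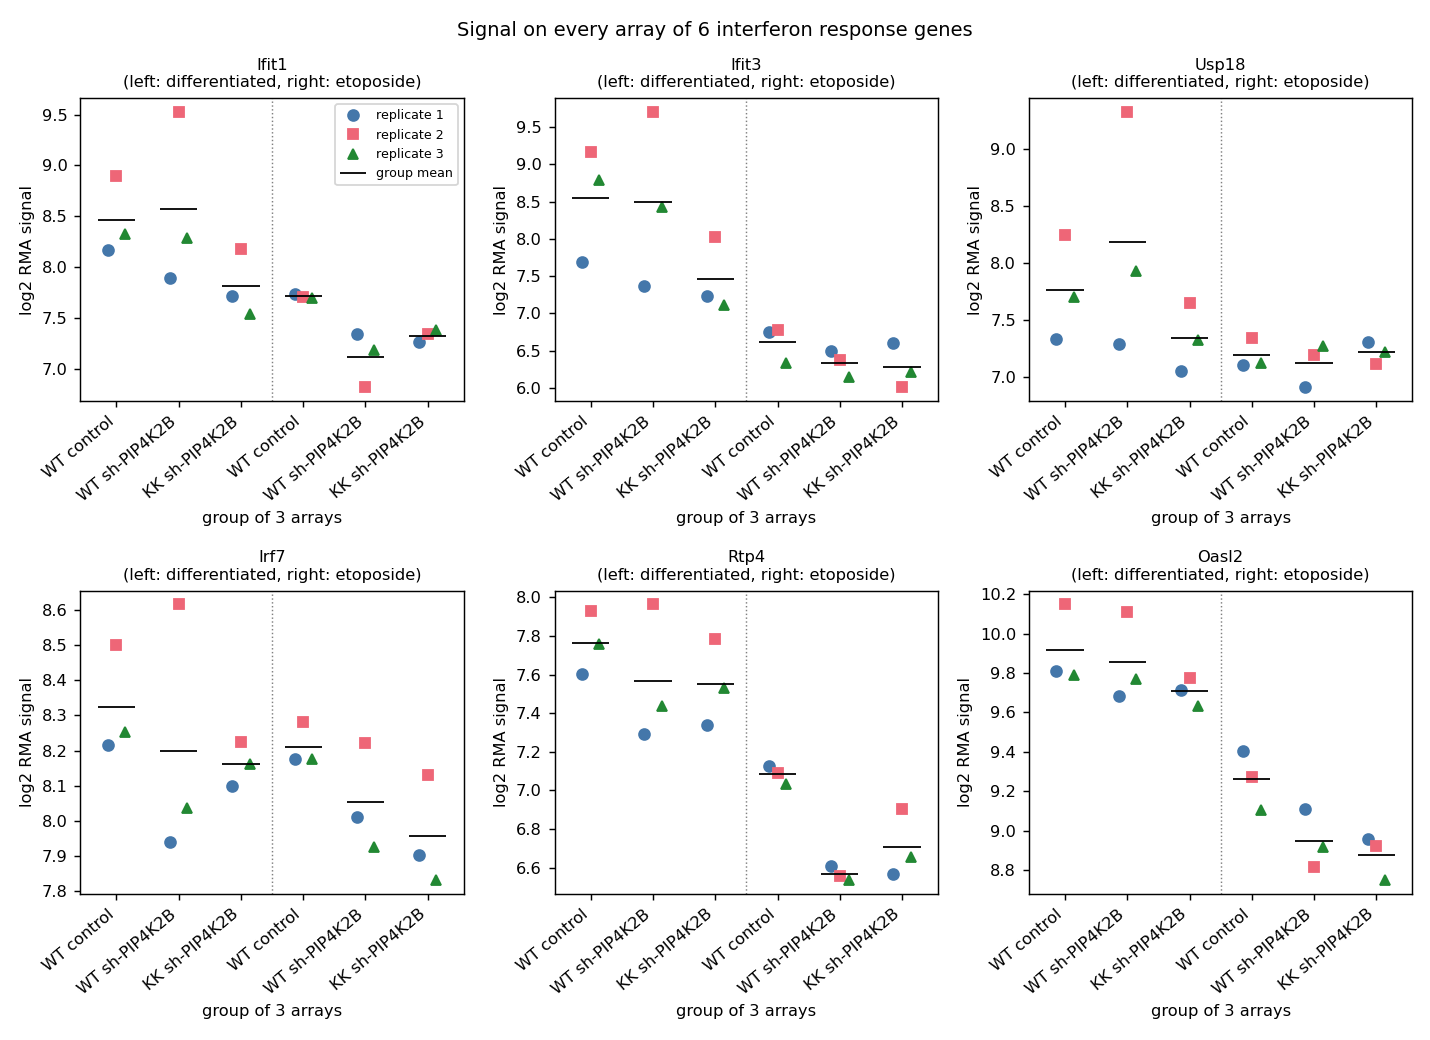
Log2 RMA signal (y axis) on each of 18 arrays for 6 interferon response genes, by group (x axis). Symbols mark the replicate number and bars the mean of 3 arrays. Replicate 2 was the highest array of each differentiated group in all 6 genes, and differentiated arrays lay above etoposide arrays of the same line without overlap in Ifit1, Ifit3, Rtp4 and Oasl2.

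Between the treatments, in control cells, 8 members were lower after etoposide than in differentiated cells (2.92% of all genes were) and 2 were higher (4.71% of all genes). In WT-TAF3 sh-PIP4K2B cells 15 were lower and 3 higher (6.3% and 3.64% of all genes), and in KK-TAF3 cells 13 were lower and 3 higher (4.81% and 3.52% of all genes). Of 39 genes, 7 were lower in all 3 lines (17.9%, against 2.15% of all genes) and 2 were higher in all 3 (5.13%, against 2% of all genes). The 7 were Ifit2, Ifit3, Oasl2, Rtp4, Parp14, Dtx3l and Tapbp, and the 2 were Ifitm1 and Ifi35. The median difference of the 39 was -0.17 in control, -0.20 with sh-PIP4K2B and -0.19 with KK-TAF3, beside -0.05, 0.07 and 0.03 for all genes. The counts without the arrays numbered 2 of the differentiated groups were 8 lower and 2 higher, 13 and 3, and 12 and 3. With the array median as a covariate they were 10 and 2, 10 and 3, and 8 and 3, and 6 genes were lower in all 3 lines. Ifit2 (-0.42 with KK-TAF3, under 1.4-fold) and Ifit3 (limma adjusted p = 0.0545 with sh-PIP4K2B and 0.235 with KK-TAF3) then left that group and Zbp1 joined it. With quantile normalization within each treatment the control count was 10 lower and 1 higher. The 3 comparisons share no array. The shares of all genes given here also stand beside the counts by list that follow.

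**Figure D2:**
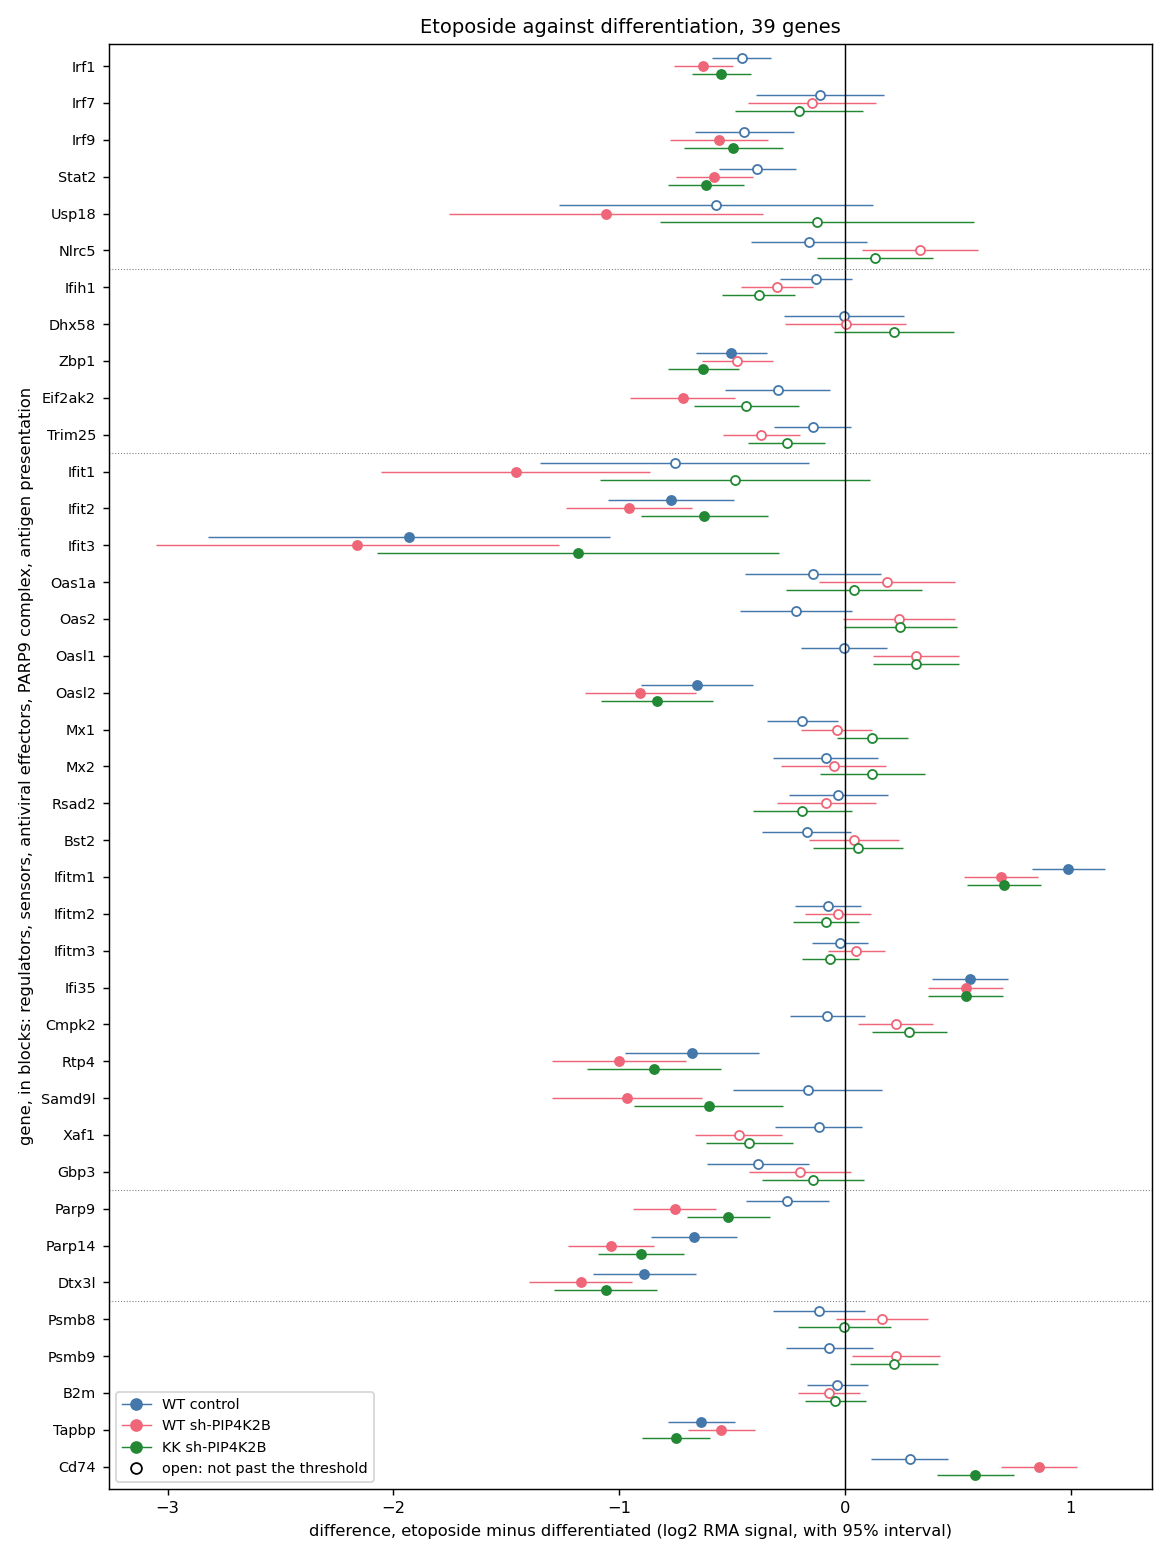
Difference between etoposide-treated and differentiated cells (x axis, log2 RMA signal, etoposide minus differentiated, with 95% interval) for 39 genes (y axis, in blocks by role) in 3 lines. Filled points passed the threshold. Points lie left of 0 for the PARP9 complex, Ifit2, Ifit3, Oasl2, Rtp4 and Tapbp and right of 0 for Ifitm1 and Ifi35 in every line.

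Among the 6 transcription factors and regulators, none passed in control cells, 4 were lower with sh-PIP4K2B and 3 with KK-TAF3. Irf1 read 11.23, 11.29 and 11.23 in differentiated control cells and 10.70, 10.80 and 10.87 after etoposide, a difference of -0.46 (SE 0.0623, limma adjusted p = 2e-05) that stayed under 1.4-fold. Its sh-PIP4K2B arrays read 11.22, 11.25 and 11.19, then 10.62, 10.51 and 10.65, and its KK-TAF3 arrays 11.30, 11.24 and 11.25, then 10.70, 10.76 and 10.68. No array of Irf1 after etoposide reached the lowest differentiated array, and the differences in these lines, -0.63 (adjusted p = 3.97e-07) and -0.55 (adjusted p = 2.48e-06), passed. A second, dimmer cluster of Irf1 passed in none of the lines.

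Irf9, the DNA-binding partner of STAT2, read 8.83, 8.99 and 8.90 in differentiated control cells and 8.39, 8.49 and 8.50 after etoposide, a difference of -0.45 (limma adjusted p = 0.00355) under 1.4-fold. With sh-PIP4K2B it read 8.63, 9.05 and 8.73, then 8.41, 8.25 and 8.07 (difference -0.56, adjusted p = 0.000438). With KK-TAF3 it read 8.75, 8.83 and 8.77, then 8.18, 8.46 and 8.22 (difference -0.50, adjusted p = 0.00152). The treatments did not overlap in any line for Irf9. Without the differentiated arrays numbered 2 both differences, -0.44 and -0.47, stayed under 1.4-fold, as they also did in several omissions of a single array.

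Stat2, the transactivating partner of IRF9, read 10.13, 10.24 and 10.25 in control, then 9.84, 9.86 and 9.77 (difference -0.39, limma adjusted p = 0.00137, under 1.4-fold). It read 10.25, 10.46 and 10.24, then 9.79, 9.71 and 9.72 with sh-PIP4K2B (difference -0.58, adjusted p = 2.12e-05), and 10.34, 10.30 and 10.26, then 9.75, 9.80 and 9.50 with KK-TAF3 (difference -0.61, adjusted p = 1.3e-05). As for Irf9, no etoposide array of Stat2 reached the differentiated arrays of its line. Usp18 was lower with sh-PIP4K2B alone (difference -1.06, SE 0.331, adjusted p = 0.0194). Without replicate 2 of the differentiated sh-PIP4K2B group its difference was -0.48 (adjusted p = 0.123), and without replicate 2 of the etoposide sh-PIP4K2B group the adjusted p was 0.0505. Irf7, the master regulator of interferon alpha genes, and Nlrc5, the transactivator of MHC class I genes, passed in no line. The brightest cluster of Nlrc5 differed by -0.16, 0.33 and 0.13, and 1 of its 19 clusters was higher with sh-PIP4K2B.

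Among the 5 sensors and partners, Zbp1, a sensor of Z-form nucleic acid, was lower in control cells (difference -0.50, limma adjusted p = 5.2e-05) and in KK-TAF3 cells (-0.63, adjusted p = 4.38e-06). With sh-PIP4K2B it differed by -0.48 (adjusted p = 7.94e-05), just under 1.4-fold. The difference in control cells was just past 1.4-fold, and fell just short of it without the differentiated replicate 2 (-0.48) or without the etoposide replicate 3 (-0.48). Eif2ak2, the kinase PKR that stops translation upon double-stranded RNA, was lower with sh-PIP4K2B (-0.72, adjusted p = 6.27e-05), and differed by -0.30 (adjusted p = 0.0599) in control and by -0.44 (adjusted p = 0.00626, under 1.4-fold) with KK-TAF3. Ifih1, the RNA sensor MDA5, Dhx58, its regulator LGP2, and Trim25, a ubiquitin ligase of the RIG-I pathway, passed in no line. The mean signal of Dhx58 (6.51) lay near the 25th percentile of all genes (6.47).

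Of the 20 antiviral effectors, 4 were lower and 2 higher in control cells, 6 lower and 2 higher with sh-PIP4K2B, and 5 lower and 2 higher with KK-TAF3. Ifit3 had the largest difference of the 39 in each line. After etoposide it read 6.75, 6.78 and 6.33 in control, 6.50, 6.37 and 6.15 with sh-PIP4K2B, and 6.61, 6.01 and 6.22 with KK-TAF3, below every differentiated array of any line. The differences were -1.93 (SE 0.424, limma adjusted p = 0.00224), -2.16 (adjusted p = 7e-04) and -1.18 (adjusted p = 0.0485). Without the differentiated arrays numbered 2 the first 2 were -1.62 (adjusted p = 0.00113) and -1.56 (adjusted p = 0.00139). The KK-TAF3 difference was lost in 5 of the 6 omissions of a single KK-TAF3 array, at -0.90 (adjusted p = 0.199) without the differentiated replicate 2, and at adjusted p = 0.0718 and 0.051 without the differentiated replicates 1 and 3 and 0.135 and 0.118 without the etoposide replicates 2 and 3. The neighbouring Ifit1 was lower with sh-PIP4K2B (-1.46, adjusted p = 0.000652), by -0.98 (adjusted p = 8.11e-05) without the arrays numbered 2. Ifit1 differed by -0.75 (adjusted p = 0.0645) in control and -0.49 (adjusted p = 0.239) with KK-TAF3, although its etoposide arrays of 7.74, 7.70 and 7.69 in control and 7.26, 7.34 and 7.38 with KK-TAF3 lay below the differentiated ones.

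Ifit2, which binds AU-rich RNA, read 8.84, 9.12 and 8.97 in differentiated and 8.27, 8.23 and 8.11 in etoposide-treated control cells (difference -0.77, limma adjusted p = 0.000258). Its arrays read 8.58, 8.98 and 8.59, then 7.99, 7.51 and 7.77 with sh-PIP4K2B (-0.96, adjusted p = 2.19e-05), and 8.77, 8.97 and 8.48, then 8.15, 8.19 and 8.02 with KK-TAF3 (-0.62, adjusted p = 0.00175). The treatments did not overlap in any line. Oasl2, an OAS-like protein with ubiquitin-like domains, read 9.81, 10.15 and 9.79, then 9.40, 9.27 and 9.11 in control (-0.66, adjusted p = 0.000375). It read 9.68, 10.11 and 9.77, then 9.11, 8.82 and 8.92 with sh-PIP4K2B (-0.91, adjusted p = 1.01e-05), and 9.71, 9.77 and 9.63, then 8.96, 8.92 and 8.75 with KK-TAF3 (-0.83, adjusted p = 3.16e-05). Here too each etoposide array lay below all differentiated arrays of the same line. Of the other OAS genes, Oas1a, Oas2 and Oasl1 passed in no line.

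Rtp4, an interferon-induced negative regulator of RNA sensing, read 7.60, 7.93 and 7.76, then 7.13, 7.09 and 7.03 in control (-0.68, limma adjusted p = 0.0014). It read 7.29, 7.96 and 7.44, then 6.61, 6.56 and 6.54 with sh-PIP4K2B (-0.999, adjusted p = 2.54e-05), and 7.34, 7.78 and 7.53, then 6.56, 6.90 and 6.65 with KK-TAF3 (-0.84, adjusted p = 0.000183). The treatments again did not overlap, and without the arrays numbered 2 the sh-PIP4K2B difference of Rtp4 was -0.80 (adjusted p = 3.82e-05). Samd9l, a restriction factor of poxviruses and a growth suppressor, was lower with sh-PIP4K2B (-0.97, adjusted p = 0.000118) and with KK-TAF3 (-0.60, adjusted p = 0.00796), and differed by -0.17 (adjusted p = 0.474) in control. The KK-TAF3 difference of Samd9l was -0.38, under 1.4-fold, without the etoposide replicate 1.

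A pair of effectors went the other way. Ifitm1, a membrane protein that blocks viral fusion, read 10.75, 10.79 and 10.61 in differentiated control cells and 11.60, 11.73 and 11.79 after etoposide (0.99, limma adjusted p = 2.12e-08). It read 10.87, 10.91 and 10.99, then 11.51, 11.60 and 11.74 with sh-PIP4K2B (0.69, adjusted p = 1.71e-06), and 11.21, 11.15 and 11.14, then 11.79, 11.86 and 11.96 with KK-TAF3 (0.70, adjusted p = 1.6e-06). Both clusters of Ifitm1 were higher in all 3 lines, whereas its relatives Ifitm2 and Ifitm3 passed in none and lay between 13.11 and 13.61 on every array. Ifi35, an interferon-induced leucine zipper protein, was higher by 0.55 in control and by 0.53 in both sh-PIP4K2B lines (adjusted p = 3.83e-05, 4.61e-05 and 5.48e-05). The Ifi35 differences lay close to 1.4-fold and fell under it, at 0.48 and 0.47, without the etoposide replicate 3 of the control or of the KK-TAF3 group. The GTPases Mx1, Mx2 and Gbp3, the antiviral radical-SAM enzyme Rsad2, the virion tether Bst2, the nucleotide kinase Cmpk2 and the apoptosis factor Xaf1 passed in no line. The mean signals of Mx1 (4.97), Mx2 (5.46) and Cmpk2 (5.76) lay under the 25th percentile of all genes (6.47), and that of Rsad2 (6.58) just above. Whether these transcripts were detected was not tested.

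Of the 3 genes of the PARP9 complex with Parp14, 2 were lower in control cells and 3 in each of the sh-PIP4K2B lines. Dtx3l, the ubiquitin ligase partner of PARP9, read 9.96, 10.05 and 10.04, then 9.22, 9.23 and 8.93 in control (-0.89, SE 0.109, limma adjusted p = 5.75e-06). It read 9.93, 10.15 and 10.04, then 9.10, 8.84 and 8.68 with sh-PIP4K2B (-1.17, adjusted p = 1.75e-07), and 9.79, 9.79 and 9.77, then 8.81, 8.85 and 8.51 with KK-TAF3 (-1.06, adjusted p = 6.82e-07). Parp14, a mono-ADP-ribosyltransferase, read 7.98, 8.11 and 8.22, then 7.46, 7.46 and 7.39 in control (-0.67, adjusted p = 1.95e-05). It read 8.16, 8.45 and 8.19, then 7.30, 7.18 and 7.21 with sh-PIP4K2B (-1.03, adjusted p = 8.11e-08), and 8.26, 8.18 and 8.25, then 7.33, 7.48 and 7.16 with KK-TAF3 (-0.90, adjusted p = 5.23e-07). No etoposide array of Dtx3l or Parp14 reached a differentiated array of any line. Parp9, which shares a promoter region with Dtx3l and is recruited to DNA damage with it, differed by -0.26 (adjusted p = 0.0418, under 1.4-fold) in control and was lower with sh-PIP4K2B (-0.75, adjusted p = 2.61e-06) and with KK-TAF3 (-0.52, adjusted p = 0.000207). Without the etoposide replicate 1 the KK-TAF3 difference of Parp9 was -0.45.

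Of the 5 antigen presentation genes 1 was lower in every line and Cd74 was higher in the sh-PIP4K2B lines. Tapbp, the chaperone tapasin that ties MHC class I to the peptide transporter, read 11.84, 11.82 and 11.76, then 11.23, 11.22 and 11.06 in control (-0.64, limma adjusted p = 1.94e-06). It read 11.87, 11.93 and 11.91, then 11.30, 11.49 and 11.27 with sh-PIP4K2B (-0.55, adjusted p = 9.64e-06), and 11.80, 11.78 and 11.74, then 11.02, 11.11 and 10.96 with KK-TAF3 (-0.75, adjusted p = 2.51e-07). The treatments did not overlap. B2m, the invariant light chain of class I, lay between 13.25 and 13.47 on all 18 arrays, with differences of -0.03, -0.07 and -0.04 (adjusted p = 0.724, 0.404 and 0.678). In the 3 lines in turn the 95% interval of B2m ran from -0.17 to 0.10, from -0.21 to 0.06 and from -0.18 to 0.09.

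Psmb8, an immunoproteasome subunit, read 6.92, 6.90 and 7.05, then 6.74, 6.86 and 6.92 in control, 6.84, 6.61 and 6.77, then 6.78, 7.08 and 6.86 with sh-PIP4K2B, and 6.82, 6.89 and 6.78, then 7.01, 6.64 and 6.83 with KK-TAF3. The treatments overlapped in each line for Psmb8, with adjusted p of 0.415, 0.198 and 0.991 in limma. Psmb9, its companion, passed in no line either. Cd74, the invariant chain that fills the groove of MHC class II, was higher after etoposide by 0.86 (adjusted p = 2.02e-07) with sh-PIP4K2B and by 0.58 (adjusted p = 2.75e-05) with KK-TAF3, and by 0.29 (adjusted p = 0.0139, under 1.4-fold) in control. In all, 20 of the 39 members passed in none of the 3 lines, beside 17171 of 19938 genes.

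Genes around this set, taken from lists of the same pathways, had both directions. Of 26 other interferon-induced genes, 2 were lower and 1 higher in control, 9 and 1 with sh-PIP4K2B, and 7 and 1 with KK-TAF3. The shares of all genes were 2.92% lower and 4.71% higher, 6.3% and 3.64%, and 4.81% and 3.52%. Lgals3bp (-1.05, -0.95 and -1.04) and Trim30a (-0.80, -0.99 and -1.21) were lower in all 3 lines, and Lgals9, the lectin galectin-9, was higher (0.81, 1.12 and 0.81). Of 17 interferons, receptors and kinases, Socs3, a feedback inhibitor of JAK kinases, was lower in every line (-0.67, -0.90 and -1.08). Ifngr1, a chain of the interferon gamma receptor, was lower in both sh-PIP4K2B lines (-0.64 and -0.65) and Tyk2 higher in control (0.56).

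The interferon genes and the type I receptor did not pass. Ifnb1 lay between 5.68 and 6.24 on all arrays and differed by -0.18, 0.19 and -0.02 (limma adjusted p = 0.266, 0.194 and 0.928). That range lies under the 25th percentile of the mean signal of all genes (6.47), and whether Ifnb1 was detected was not tested. Ifnar1 differed by 0.09, -0.12 and 0.02, and Ifnar2 by -0.09, -0.13 and -0.11. Of 11 sensing genes, Ddx58, the RNA sensor RIG-I, was lower in every line (-0.67, -0.87 and -0.72), while the adaptor Myd88 was higher in control and with sh-PIP4K2B (0.59 and 0.51) and the adaptor Ticam1 with sh-PIP4K2B (0.58). Of 17 other antigen processing genes, Erap1, the aminopeptidase that trims peptides in the endoplasmic reticulum, was lower in every line (-0.87, -1.19 and -0.91). The peptide transporter genes went separate ways, Tap2 lower in control (-0.60) and Tap1 higher with KK-TAF3 (0.62). Beside these changes, of the 8 muscle markers 3 were lower and 2 higher after etoposide in control, 3 and 1 with sh-PIP4K2B, and 0 and 2 with KK-TAF3, with Myog, Myh3 and Acta1 the lower ones. Cd68, a macrophage lysosomal marker also present in other cells, was higher in control and with KK-TAF3 (0.52 and 0.60), the 1 of 10 macrophage markers that passed. No lymphocyte or endothelial marker passed in these comparisons. The part of these markers in the results above was not tested.

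Depletion of PIP4K2B in differentiated cells left 38 of the 39 genes short of the threshold. Of the members 1, Samd9l, was higher and none was lower, where 0.682% of all genes were higher and 0.376% lower. Samd9l read 8.50, 8.46 and 8.45 in control and 8.93, 9.18 and 8.95 with sh-PIP4K2B, with no overlap. The difference was 0.55 (SE 0.158, limma adjusted p = 0.0476). It lost the call in all 6 omissions of a single array, at adjusted p between 0.0586 and 0.217, and its difference was 0.46 (adjusted p = 0.48) without the arrays numbered 2. With KK-TAF3 Samd9l read 8.76, 8.73 and 8.57, between the other groups without touching either. Cd74 read 6.69, 6.91 and 6.86 in control and 7.07, 7.32 and 7.27 with sh-PIP4K2B. Its difference was 0.40 (adjusted p = 0.00785), under 1.4-fold, and without the arrays numbered 2 again 0.40 (adjusted p = 0.132). With the array median as a covariate Samd9l lost the call (0.29, adjusted p = 0.557) and Ifit2 was lower (-0.57, adjusted p = 0.00977, against -0.26 and 0.209 without it). Eif2ak2 differed by 0.30 (adjusted p = 0.0966) and Nlrc5 by -0.33 (adjusted p = 0.0987), each without overlap of the arrays.

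The median difference of the 39 was -0.02, the same as that of all genes. Ifit3 differed by -0.05 with a 95% interval from -0.94 to 0.84, and Usp18 by 0.42 with an interval from -0.28 to 1.12. The interval of Ifit3 reaches beyond 1.4-fold in both directions and that of Usp18 only upward. Irf1, by contrast, differed by -0.03 with an interval from -0.16 to 0.10. Of the pathway lists, 1 gene of 71 passed, Lgals9, which was lower (-0.51, limma adjusted p = 0.000116). Beside these values, 8 lymphocyte markers had a median difference of -0.14 and 5 endothelial markers one of -0.21, with none past the threshold, while Tnnt2 of the muscle markers was higher (0.63).

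**Figure D3:**
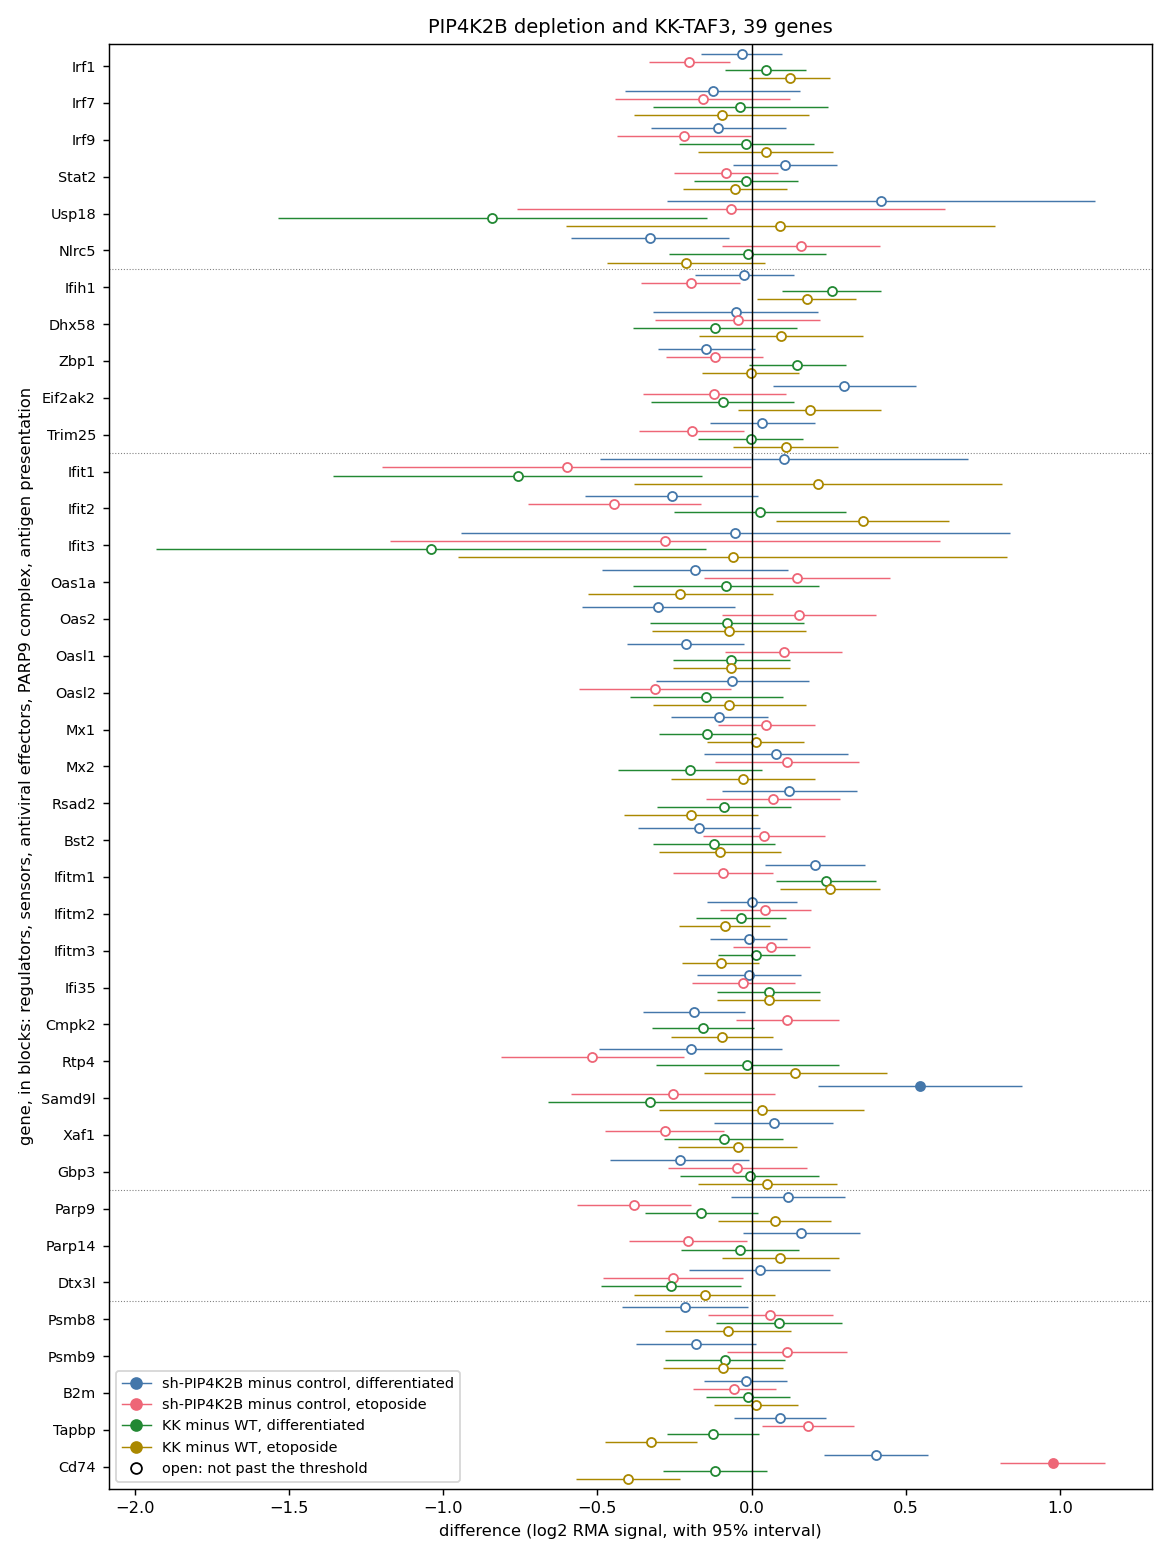
Differences between lines within a treatment (x axis, log2 RMA signal, with 95% interval) for 39 genes (y axis, in blocks by role): sh-PIP4K2B minus control and KK-TAF3 minus WT-TAF3, both in sh-PIP4K2B cells, after differentiation and after etoposide. Filled points passed the threshold, and the only ones are Samd9l after differentiation (0.55) and Cd74 after etoposide (0.98), both on depletion of PIP4K2B.

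Depletion of PIP4K2B in etoposide-treated cells raised Cd74 and no other of the 39, where 0.321% of all genes were higher and 0.547% lower. None of the 39 passed as lower, while the shared cluster of Gbp2 and Gbp2b, tested apart, did (-0.92). Cd74 read 7.12, 7.08 and 7.11 in control and 8.15, 8.12 and 7.98 with sh-PIP4K2B. The groups did not overlap, and the difference of 0.98 (SE 0.0807, limma adjusted p = 1.41e-06) was kept in every omission of a single array. KK-TAF3 cells read 7.71, 7.78 and 7.56, below WT-TAF3 sh-PIP4K2B and above control on every array. The partners of Cd74 in class II presentation did not pass: H2-Aa differed by -0.05 (adjusted p = 0.815), H2-Ab1 by 0.21 (adjusted p = 0.411), H2-Eb1 by 0.10 (adjusted p = 0.559) and the class II transactivator Ciita by 0.15 (adjusted p = 0.465). None of the 10 macrophage and dendritic cell markers passed, their median difference was 0.08, and Ptprc lay between 6.04 and 6.28 in these 2 groups.

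Several interferon-induced genes had lower means in the depleted etoposide-treated cells. Rtp4 read 7.13, 7.09 and 7.03 in control and 6.61, 6.56 and 6.54 with sh-PIP4K2B, without overlap, a difference of -0.52 (SE 0.141, limma adjusted p = 0.0542). In this comparison samples of the same number deviated together (r = 0.435, 0.332 and 0.559). With the replicate number as a block Rtp4 passed (adjusted p = 0.012), which makes 2 members, 1 higher and 1 lower. Rtp4 also passed without a block, with only the groups compared (limma adjusted p = 0.0272) and without the differentiated arrays numbered 2 (0.0066). Of the alternatives, it passed in 7 and stayed short in 10. Its SD between replicates stood at the 99.4 percentile of all genes in differentiated cells and at the 33 percentile after etoposide. Parp9 read 8.52, 8.59 and 8.67 in control and 8.33, 8.02 and 8.28 with sh-PIP4K2B, again without overlap, and its difference of -0.38 (adjusted p = 0.0193) was under 1.4-fold. Ifit1 read 7.74, 7.70 and 7.69 against 7.34, 6.82 and 7.18 (-0.60, adjusted p = 0.302). Without the differentiated arrays numbered 2, which enter only through the pooled variance, the same difference in Ifit1 had an adjusted p of 0.0147. The median difference over the 39 was -0.07, beside 0.02 for all genes. Differences below 0 were found in 24 of the 39 and in 8709 of 19938 genes. The 20 antiviral effectors were evenly split, 10 of them below 0, with a median of 0.007. None of 26 other interferon-induced genes passed. The regulators Irf9, Irf1 and Stat2 differed by -0.22 (adjusted p = 0.302), -0.20 (adjusted p = 0.0991) and -0.08 (adjusted p = 0.611).

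The effect of PIP4K2B depletion differed between the treatments for 3 members, 1 higher and 2 lower after etoposide, where 1.95% and 2.07% of all genes were. For Cd74 the effect was larger after etoposide by 0.57 (SE 0.114, limma adjusted p = 0.0115), from 0.40 to 0.98, the same direction in both. Omission of any single array left this difference past the threshold, but without all 3 differentiated arrays numbered 2 it was 0.58 (adjusted p = 0.0854), and with quantile normalization within each treatment 0.45 (adjusted p = 0.0554). For Samd9l the effects were 0.55 and -0.25, a difference of -0.80 (adjusted p = 0.0432) that lost the call in 10 of the 12 omissions of a single array. Its arrays after etoposide were 8.25, 8.26 and 8.41 in control and 8.43, 7.80 and 7.92 with sh-PIP4K2B, which overlap. For Parp9 the effects were 0.12 and -0.38, a difference of -0.50 (adjusted p = 0.0309) that lost the call in 7 of the 12 omissions. Without the arrays numbered 2 of the differentiated groups Samd9l and Parp9 had adjusted p of 0.254 and 0.187.

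Parp9 read 8.77, 8.94 and 8.83 in differentiated control cells, 8.95, 9.06 and 8.89 with sh-PIP4K2B and 8.74, 8.81 and 8.85 with KK-TAF3, with control overlapping both. Beside these differences between treatments, Nkg7, a cytotoxic lymphocyte marker, and Pecam1, an endothelial marker, were also past the threshold (0.61 and 0.56, limma adjusted p = 0.0499 and 0.0334), and the medians of the lymphocyte and endothelial lists were 0.20 and 0.30. Their part in the result was not tested.

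**Figure D4:**
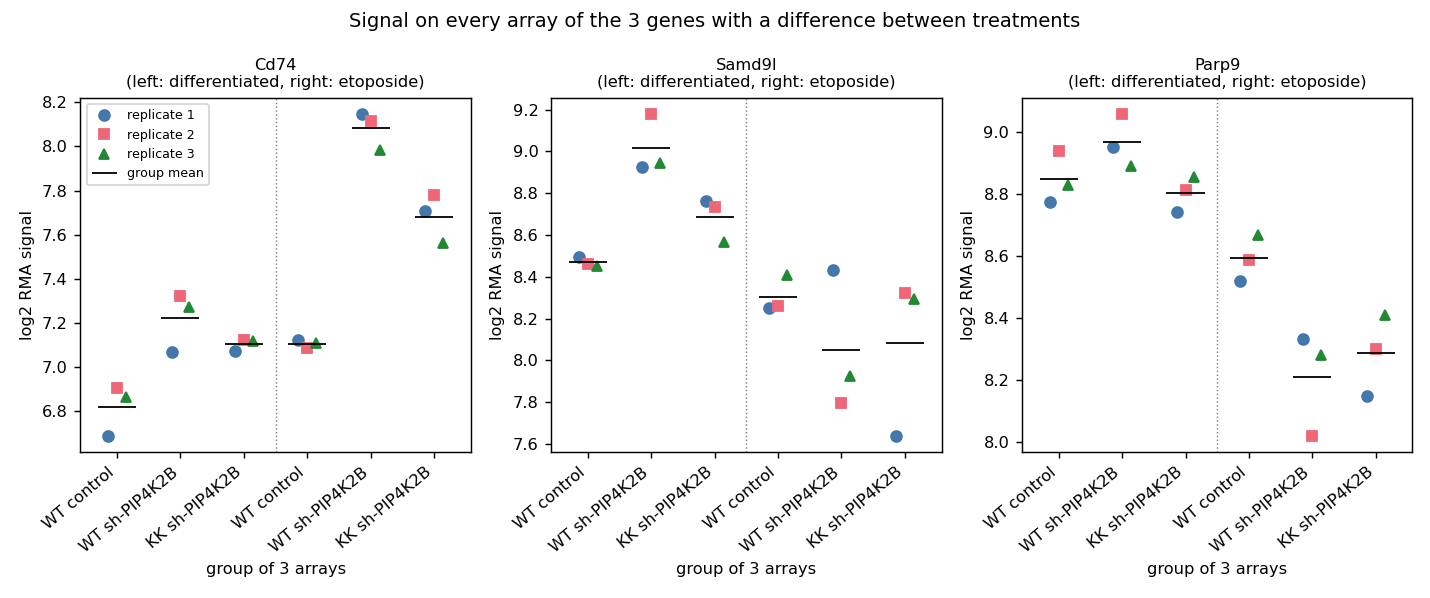
Log2 RMA signal (y axis) on each of 18 arrays for Cd74, Samd9l and Parp9, by group (x axis), with replicate numbers as symbols and bars at the mean of 3 arrays. Cd74 after etoposide separates the 3 lines without overlap, whereas the sh-PIP4K2B arrays of Samd9l lie above control after differentiation and spread from 7.80 to 8.43 after etoposide.

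KK-TAF3 was compared with WT-TAF3 within sh-PIP4K2B cells. In differentiated cells no member passed, where 0.301% of all genes were higher and 0.216% lower. Before adjustment (p under 0.05 and 1.4-fold) the members below were 3, Ifit1, Ifit3 and Usp18, where 51 of 19938 genes were. Ifit3 differed by -1.04 (SE 0.424, limma adjusted p = 0.527), Usp18 by -0.84 (SE 0.331, adjusted p = 0.487) and Ifit1 by -0.76 (SE 0.284, adjusted p = 0.429). The arrays of all 3 genes overlapped, and the WT-TAF3 array numbered 2 is the highest of its group in each. Without that 1 array the differences were -0.44 for Ifit3, -0.27 for Usp18 and -0.28 for Ifit1. The 95% intervals, from -1.93 to -0.15 for Ifit3, from -1.54 to -0.15 for Usp18 and from -1.36 to -0.16 for Ifit1, do not limit these differences to less than 1.4-fold. Samd9l differed by -0.33 (adjusted p = 0.699) and Cd74 by -0.12 (adjusted p = 0.914). The factors upstream were closer: Irf9 differed by -0.02 with a 95% interval from -0.24 to 0.20, Stat2 by -0.02 from -0.19 to 0.15, and Irf1 by 0.05 from -0.09 to 0.18. In the same comparison, of 8 muscle markers Myog, Myh3, Acta1 and Tnnt2 were lower, by -0.93 to -1.18 as log2 differences.

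In etoposide-treated cells none of the 39 passed on KK-TAF3, nor did any before adjustment of the p-values. Of all genes 0.341% were higher and 0.0652% lower. The shared cluster of Gbp2 and Gbp2b, tested apart and described below, was higher. Cd74 differed by -0.40 (SE 0.0807, limma adjusted p = 0.0196) and Tapbp by -0.33 (SE 0.0709, adjusted p = 0.0318), both without overlap of the arrays and under 1.4-fold. Tapbp read 11.30, 11.49 and 11.27 in WT-TAF3 and 11.02, 11.11 and 10.96 in KK-TAF3 cells. Rtp4 differed by 0.14 (adjusted p = 0.638) and Parp9 by 0.08 (adjusted p = 0.692). The effect of KK-TAF3 did not differ between the treatments for any of the 39, where 0.135% of all genes were higher and 0.015% lower. It did for the cluster of Gbp2 and Gbp2b. Before adjustment 1 member, Ifit1, had a p under 0.05 and 1.4-fold (0.97, adjusted p = 0.732), where 105 of 19938 genes were higher. The KK-TAF3 and depletion comparisons share the WT-TAF3 sh-PIP4K2B arrays, so a high or low value there enters both with opposite signs. The median difference of the 39 was -0.08 in differentiated and -0.03 in etoposide-treated cells, beside 0.02 and -0.01 for all genes.

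Of the 4 members whose clusters carry further symbols, values belong to the cluster and cannot be assigned to 1 gene. They were tested in a fit over every transcript cluster. The cluster of Isg15, the ubiquitin-like modifier, and Gm9706 lay between 6.56 and 7.18 and passed in no comparison. The 2 clusters of the class I heavy chains H2-K1 and H2-D1 with LOC547349 lay between 9.05 and 9.51 and passed in none either. The cluster of Gbp2, an interferon-induced GTPase, and Gbp2b read 9.21, 9.17 and 9.24 in differentiated control cells, 9.28, 9.44 and 9.33 with sh-PIP4K2B and 9.21, 9.13 and 9.20 with KK-TAF3. After etoposide it read 7.72, 7.70 and 7.81 in control, 6.93, 6.67 and 6.89 with sh-PIP4K2B, and 7.37, 7.36 and 7.34 with KK-TAF3. Each etoposide array was thus below every differentiated array, and the 3 etoposide groups did not overlap one another.

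For this cluster of Gbp2 and Gbp2b the treatment differences were -1.46, -2.53 and -1.82 in control, sh-PIP4K2B and KK-TAF3 cells (limma, adjusted p = 1.88e-09, 4.98e-12 and 1.59e-10). Depletion of PIP4K2B lowered it after etoposide (difference -0.92, SE 0.0694, adjusted p = 8.6e-06), while in differentiated cells it differed by 0.15 (adjusted p = 0.23), and the effect differed between the treatments (-1.07, adjusted p = 0.000106). KK-TAF3 cells were higher than WT-TAF3 cells after etoposide (0.53, adjusted p = 0.00198) and differed by -0.17 (adjusted p = 0.596) in differentiated cells, a difference between treatments of 0.70 (adjusted p = 0.011). The KK-TAF3 value uses the same WT-TAF3 sh-PIP4K2B arrays as the depletion value. The neighbouring family member Gbp3, with a cluster of its own, passed in none of these comparisons.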

How the data were processed

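RNA from 3 arrays in each of 6 groups was hybridised to Affymetrix mouse gene arrays, and the authors normalized the scans by RMA in Affymetrix Expression Console (version not given in the sources used here). The deposited values are log2 RMA signals of 35556 transcript clusters. Clusters were named from the platform annotation: 21789 had 1 symbol, 1621 several and 12146 none listed. The study's methods name another array generation than this annotation. The arrays are described as biological triplicates. The brightest single-symbol cluster stood for each of 19938 genes. limma 3.58.1 (R 4.3.3) fitted 6 group means in 1 model with a pooled, moderated variance (12 residual degrees of freedom), and 9 contrasts were adjusted by Benjamini-Hochberg. The methods use 1.4-fold and a p of 0.05 without naming the test. The analysis was tested on simulated data. The members, lists and alternatives were chosen with earlier results of these data known. Array values are printed for members past the threshold in a genotype comparison or a difference between treatments, and for Irf9, Stat2, Irf1 and Psmb8. They are also printed for the 8 with the largest treatment change in control cells among those past the threshold without overlap of the arrays. Isg15, B2m and H2-K1 are given as ranges over the arrays. Ifit1 and, in differentiated cells, Usp18 were added after their values were seen. The number of arrays limits the precision, and probe cross-hybridisation between related genes was not tested. By correlation over all genes, numbers paired samples only in the depletion comparison after etoposide. Alternatives chosen after seeing the data were leaving out the differentiated arrays numbered 2 and a replicate block within each treatment.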

Additional observations from a re-analysis of the deposited data

Results flagged for a closer look

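The effect of PIP4K2B depletion differed between etoposide-treated and differentiated cells, by the test of that difference in limma, for 3 of the 39 members. Of these 1 was higher and 2 were lower, where 1.95% and 2.07% of all genes were. The cluster shared by Gbp2 and Gbp2b, tested apart, was lower as well (-1.07, adjusted p = 0.000106). The difference was 0.57 (adjusted p = 0.0115) for Cd74, which was raised more after etoposide, -0.8 (adjusted p = 0.0432) for Samd9l, and -0.5 (adjusted p = 0.0309) for Parp9. The effect was positive in both treatments for Cd74, and its sign differed between treatments for Samd9l and Parp9. Samd9l lost the call in 10 and Parp9 in 7 of the 12 omissions of a single array. None of the 3 passed with quantile normalization within each treatment or without the differentiated arrays numbered 2.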

How the results depend on the processing

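Counts of members past the threshold, over the omissions of a single array, ran from 0 to 0 (depletion, differentiated; 1 in the report), 1 to 3 (depletion, etoposide), 9 to 11, 16 to 20 and 13 to 16 (etoposide against differentiation in control, sh-PIP4K2B and KK-TAF3) and 1 to 6 (depletion, difference between treatments), and stayed at 0 in both KK-TAF3 comparisons and in their difference. The highest values, 3 and 6, came without replicate 1 of the etoposide WT-TAF3 sh-PIP4K2B group, where the counts over all genes went from 173 to 348 and from 801 to 2668. For depletion in differentiated cells the count was 2 with no fold limit and 0 with every transcript cluster, with either replicate block and without the differentiated arrays numbered 2. With the array median as a covariate it stayed at 1, but as Ifit2, lower, in place of Samd9l, higher. For depletion after etoposide it was 3 with unadjusted p-values, 2 with no fold limit, 2 with only the groups compared, 2 with a trended robust prior, 0 among genes above the median signal (which leave Cd74 out), 2 with either replicate block and 3 without the arrays numbered 2. For the difference between treatments on depletion it was 1 with every transcript cluster, 0 with quantile normalization within each treatment, 1 with the array median as a covariate and 0 without the arrays numbered 2. In the KK-TAF3 comparisons it was 3 (differentiated) and 1 (difference between treatments) with unadjusted p-values, and 2 (etoposide) with no fold limit. In control cells between treatments it was 16 with no fold limit. No result changed sign under any alternative where it was past the threshold.

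By correlation over all genes, the replicate numbers paired the samples only in depletion after etoposide. Within this set, 11 of 39 members were nevertheless highest on the arrays numbered 2 in all 3 differentiated groups. The single-gene results followed were 60, some of them short of the threshold from the start. The array median as a covariate took 14 under the threshold, quantile normalization 7 and leaving out the arrays numbered 2 took 8. Some results were lost in more than 1 of these settings. With the covariate, among others, Ifit3 with sh-PIP4K2B between treatments had an adjusted p of 0.0545. The replicate block lost the calls of Samd9l on depletion in differentiated cells (adjusted p = 0.062) and between treatments (0.0554) and added Rtp4 after etoposide, and the other named results kept theirs. With 3 arrays a group the SE of a member's difference between lines ran from 0.0594 to 0.424, so the genes that vary most between replicates, Ifit3, Usp18 and Ifit1, had the least precise values.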
